A study of Mus musculus with 8 samples.

Results

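Transcripts of 36 apoptosis regulators and caspases were followed in endogenous CD8+ T cells that had been separated by IL-18Rα, the ligand-binding chain of the interleukin-18 receptor. The members were taken by gene symbol from a table of 47493 genes. They comprised 7 anti-apoptotic BCL2 genes, 7 BH3-only genes, 3 pore-forming genes, 5 genes of the apoptosome and its regulators, 5 other caspases, 6 genes of the death receptor pathway and 3 necroptosis genes.

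RNA was sequenced from 8 libraries, with 1 IL-18Rα-hi and 1 flow-through library from each of 4 female C57BL/6 mice aged 6 to 8 weeks. All mice carried B16F10 melanoma (200000 cells, day 0) and had received cyclophosphamide (300 mg/kg, day 3), 2000000 Pmel-1 T cells from Thy1.1 transgenic donors, which recognize a melanoma antigen (day 5), IL-2 (10000 IU daily for 3 days) and the CD4-depleting antibody GK1.5 (200 μg weekly from day 10). On day 25, CD8+ T cells of the mouse itself, lacking the Thy1.1 antigen of the transferred cells, were purified from inguinal lymph nodes and spleen. A PE-labeled antibody and magnetic beads then retained the IL-18Rα-hi cells on a column, and the cells that ran through formed the control fraction. The comparison was thus between a bead-enriched fraction and the rest of the same pool. It held no untreated mice and a single tumor line.

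Apoptosis through mitochondria is governed by the BCL2 family. Anti-apoptotic members such as BCL2, BCL-XL and MCL1 hold back the pore formers BAX and BAK, and BH3-only proteins neutralize the anti-apoptotic members or activate the pore formers, after which cytochrome c leaves the mitochondria and assembles with APAF1 and caspase-9. Death receptors such as FAS instead recruit caspase-8 through FADD, and RIPK1 and RIPK3 start necroptosis when caspase-8 is blocked. In CD8+ T cells, naive and memory cells are known to rely on BCL2, whereas BCL-XL and A1, the product of the *Bcl2a1* genes, are induced by T-cell receptor and costimulatory signals.

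A1 is encoded in the mouse by near-identical copies, and 3 of them were members. Their coding sequences are shown because the largest differences of the set lay in these genes and because reads can be assigned to a copy only at the few bases that differ. The first 90 coding bases in the mm10 genome are given with the 6 positions at which any copy differs from another in capitals, for *Bcl2a1a* at chr9:88957051-88957140 (plus strand), *Bcl2a1b* at chr9:89199360-89199449 (plus strand) and *Bcl2a1d* at chr9:88731630-88731719 (minus strand).
Bcl2a1a: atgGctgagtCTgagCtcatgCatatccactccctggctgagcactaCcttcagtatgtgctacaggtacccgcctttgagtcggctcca
Bcl2a1b: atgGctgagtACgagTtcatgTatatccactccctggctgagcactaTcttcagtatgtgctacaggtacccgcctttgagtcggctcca
Bcl2a1d: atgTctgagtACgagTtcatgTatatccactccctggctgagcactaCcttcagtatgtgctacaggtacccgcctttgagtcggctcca
Over all 519 coding bases, *Bcl2a1b* and *Bcl2a1d* differed at 6 positions (98.8% identity), *Bcl2a1a* and *Bcl2a1d* at 7 (98.7%) and *Bcl2a1a* and *Bcl2a1b* at 11 (97.9%). Of the 150-base windows along each transcript, 28.2% of those of *Bcl2a1a*, 14.2% of those of *Bcl2a1b* and 30.3% of those of *Bcl2a1d* were also found in another of the 3 copies. The division of reads among the copies is therefore uncertain, and their summed level is given beside the single values.

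Values are FPKM, the fragments of a gene scaled for transcript length and library depth, as deposited, with mean ± SD of 4 libraries. Differences were tested with limma on log2(FPKM + 1) over the 12166 genes whose mean reached 1 FPKM, so fold changes on this scale understate those of low genes. A gene was called at a Benjamini-Hochberg adjusted p under 0.05, and a difference is always IL-18Rα-hi minus flow-through. Unless stated, calls are from a fit that does not pair the fractions of a mouse. The summed FPKM of the libraries lay between 656715 and 711678, and 11706 to 12288 genes per library reached 1 FPKM. The files hold no counts, so read depth is unknown and no counting interval is given. Exons of 11 members overlap those of another gene, which is protein-coding for 9 of them. Flow-through replicate 1 stood apart. The summed FPKM of 8 CD8 T-cell identity genes (such as *Cd3e* and *Cd8a*) was 1337 there, against 2144 to 2548 in flow-through replicates 2 to 4 and 2542 to 2724 in the IL-18Rα-hi libraries. Erythroid progenitor markers, such as *Gata1* and *Tfrc*, summed to 3061 FPKM in that library, 1038 to 1689 FPKM in flow-through replicates 2 to 4 and 222 to 848.1 FPKM in the IL-18Rα-hi libraries. Results are therefore also given after T-cell scaling, in which every library was brought to the same geometric mean of the 8 identity genes. T-cell scaling moved the median log2 difference over all genes from -0.02 to -0.33, and the calls from 1720 higher and 1664 lower genes to 509 higher and 906 lower. With scaled values, zero is thus no longer the middle of the genes.

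Of the 35 members that passed the filter, 14 were higher in IL-18Rα-hi cells and 1 was lower at the threshold, while 20 were not called. *Bcl2a1a*, which is among the 14, and *Bmf*, which was not called, passed the filter only through the IL-18Rα-hi libraries. Their flow-through means were 0.5606 and 0.9074 FPKM. The shares were 40.0% higher and 2.86% lower among members, beside 14.1% higher and 13.7% lower among all genes tested. The median log2 fold change was 0.28 for the members and -0.02 for all genes. All 14 members called higher were higher in 4 of 4 mice, which follows from their fractions not overlapping, with ratios of means from 1.22 to 3.24. Called or not, 19 of 35 members were higher in 4 of 4 mice and 6 were lower in 4 of 4. Of all 12166 genes tested, 3558 were higher and 3722 lower in 4 of 4 mice. In bulk RNA, more cells of a type and more transcript per cell cannot be told apart. The fractions did not overlap for 14 members that were higher and 1 that was lower, against 16.4% and 15.9% of all genes. When the mouse was added as a block, 17 members were higher and 3 lower (48.6% and 8.57%, beside 22.2% and 22.7% of all genes). The block added *Bmf*, *Fasl* and *Cflar* to the higher members, and *Bcl2* and *Bcl2l11* to the lower. After T-cell scaling, 8 members were higher (*Bcl2a1d*, *Bcl2a1b*, *Tnfsf10*, *Casp1*, *Bik*, *Pmaip1*, *Bcl2l1* and *Casp4*) and 1, *Bcl2*, was lower (22.9% and 2.86%, beside 4.18% and 7.44% of all genes), and the median log2 fold change was -0.05 for the members and -0.33 for all genes. The calls of *Bcl2a1b*, *Bcl2a1d*, *Bik*, *Pmaip1*, *Casp1* and *Tnfsf10* held under every alternative run.

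**Figure D1:**
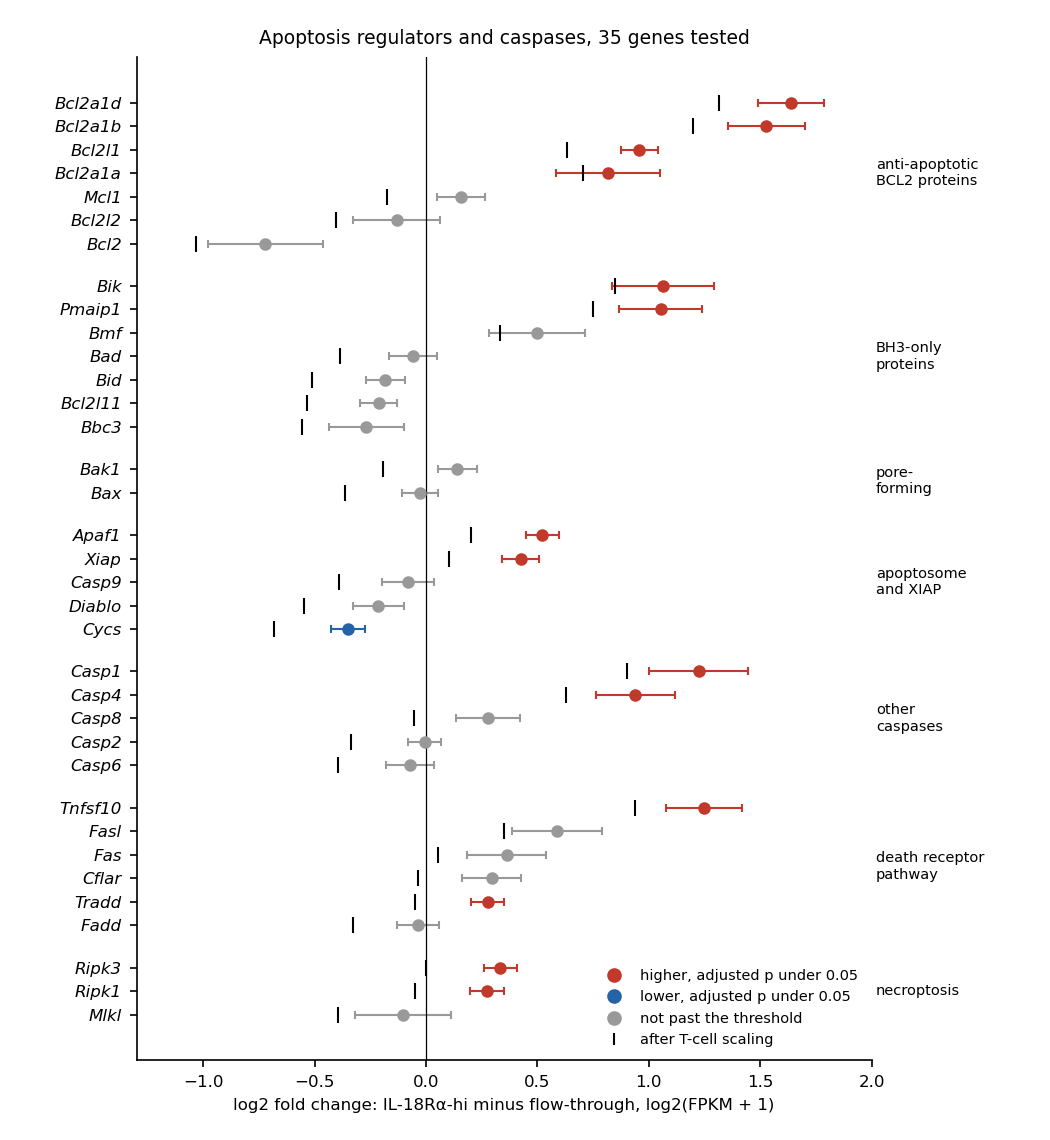
Log2 fold change (IL-18Rα-hi minus flow-through, log2(FPKM + 1)) of the 35 members tested, ordered by role. Points are limma estimates with bars of ± 1 SE, red for members called higher and blue for the member called lower, and black ticks give the same quantity after T-cell scaling. Values run from -0.72 for *Bcl2* to 1.64 for *Bcl2a1d*, and the ticks lie to the left of the points.

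Among the anti-apoptotic genes, 4 of 7 were higher and none was lower, while with the mouse as a block 1, *Bcl2*, was lower. Beside these counts, 14.1% of all genes were higher and 13.7% lower, or 22.2% and 22.7% with the block. The *Bcl2a1* copies and *Bcl2l1* moved while *Mcl1* and *Bcl2l2* did not pass the test. *Bcl2a1b* (chr9:89199209-89207827) was at 16.4, 30.9, 24.7 and 25.0 FPKM in flow-through replicates 1 to 4 and at 74.3, 64.9, 78.05 and 64.5 FPKM in IL-18Rα-hi replicates 1 to 4. Every IL-18Rα-hi library lay above every flow-through library by a wide margin. The means were 24.3 ± 5.96 and 70.4 ± 6.79 FPKM, a ratio of 2.90, and the log2 difference was 1.53 (SE 0.17, limma adjusted p = 0.00115).

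*Bcl2a1d* (chr9:88723285-88731914), which lies on the other strand of the same cluster, had the largest log2 fold change of the members tested. It was at 10.3, 17.2, 12.1 and 11.9 FPKM in the flow-through and at 41.7, 45.0, 44.4 and 35.7 FPKM in IL-18Rα-hi cells. On the FPKM scale the ratio of means was 3.24 (12.9 ± 2.97 against 41.7 ± 4.24), and on the log2 scale the difference was 1.64 (SE 0.15, limma adjusted p = 0.000463). The FPKM ratio of *Bcl2a1b* to *Bcl2a1d* within a library ranged from 1.592 to 2.102 in the flow-through and from 1.443 to 1.807 in IL-18Rα-hi libraries, ranges that overlapped. The sum of both copies, which depends less on how shared reads were divided, was 37.1 ± 8.73 and 112.1 ± 9.44 FPKM. *Bcl2a1b* shares exon sequence with the overlapping gene model *Gm29094* on its own strand.

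*Bcl2a1a*, with the fewest FPKM of the 3 copies, was at 0.080, 0.97, 0.83 and 0.37 FPKM in the flow-through and at 1.08, 1.48, 1.99 and 2.31 FPKM in IL-18Rα-hi cells. The fractions did not overlap, but the lowest IL-18Rα-hi library was close to the highest flow-through library. Its means were 0.5606 and 1.715 FPKM, so it passed the filter only through the IL-18Rα-hi libraries, where it was high. On the log2 scale the difference was 0.82 (SE 0.23, limma adjusted p = 0.0322), and 8 of 14 alternatives gave an adjusted p of 0.05 or more. Among these was the fit with no filter (limma adjusted p = 0.0543). The call was also lost without flow-through replicate 1 (limma adjusted p = 0.0527), flow-through replicate 4 (0.0686), IL-18Rα-hi replicate 2 (0.0664) or IL-18Rα-hi replicate 3 (0.0835).

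*Bcl2l1* (chr2:152780668-152831728), which encodes BCL-XL, was at 12.3, 14.9, 13.5 and 15.4 FPKM in the flow-through and at 27.8, 27.7, 28.8 and 27.8 FPKM in IL-18Rα-hi cells. The IL-18Rα-hi libraries were tightly grouped, and all of them lay above the flow-through libraries. The means were 14 ± 1.40 and 28.04 ± 0.539 FPKM, and the log2 fold change of 0.96 (SE 0.083) had the lowest p of the members (limma adjusted p = 0.000363). It was 0.63 after T-cell scaling (adjusted p = 0.0443) and was not called when the mouse was also a block (adjusted p = 0.0644).

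*Bcl2* (chr1:106538178-106714274), the founding member of the family, pointed the other way. It was at 9.78, 22.4, 16.7 and 23.3 FPKM in the flow-through and at 7.82, 9.57, 10.6 and 12.6 FPKM in IL-18Rα-hi cells. Flow-through replicate 1 was as low as the IL-18Rα-hi libraries, so the fractions overlapped, while within each of the 4 mice the IL-18Rα-hi value was the lower. The log2 fold change of -0.72 (SE 0.26) missed the threshold (limma adjusted p = 0.0683). It was called with the mouse as a block (adjusted p = 0.00651), after T-cell scaling (-1.03, adjusted p = 0.00919) and without flow-through replicate 1 (-0.97, adjusted p = 0.00547). An antisense gene, *D630008O14Rik*, overlaps exons of *Bcl2*, and their reads can be told apart only by strand.

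*Mcl1*, whose short-lived product is needed for T-cell survival, had the highest FPKM of the anti-apoptotic genes in both fractions. It was at 73.0, 98.3, 89.0 and 99.0 FPKM in the flow-through and at 96.0, 96.0, 97.9 and 109.4 FPKM in IL-18Rα-hi cells. The fractions overlapped, and the IL-18Rα-hi value was higher in 3 of 4 mice. The log2 difference was 0.16 (SE 0.11, limma adjusted p = 0.298) and turned to -0.18 after T-cell scaling, above the median of all genes on that scale. *Bcl2l2*, which encodes BCL-W, was at 3.55 ± 0.717 and 3.21 ± 1.02 FPKM (limma adjusted p = 0.636). Exons of *Bcl2l2* overlap the gene model *Gm20521* on the same strand.

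**Figure D2:**
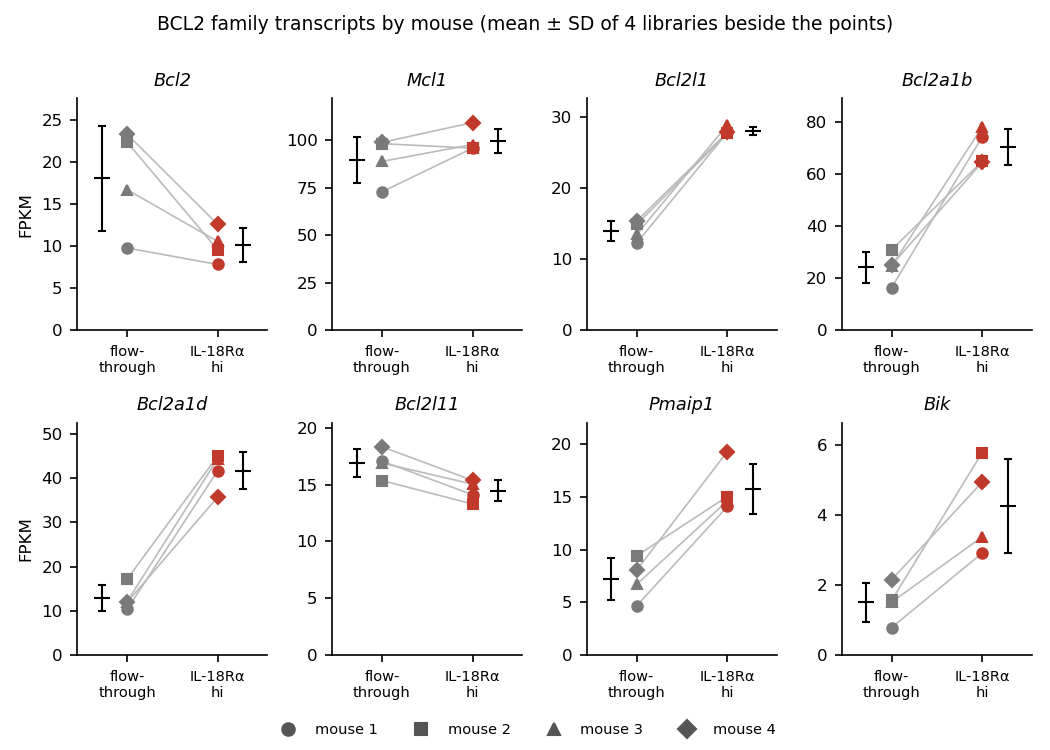
FPKM of 8 BCL2 family genes in each library (vertical axes start at 0), with the libraries of a mouse joined by a line and the mean ± SD of 4 libraries beside the points. Lines run upward in all 4 mice for *Bcl2l1*, *Bcl2a1b*, *Bcl2a1d*, *Pmaip1* and *Bik*, downward in all 4 for *Bcl2* and *Bcl2l11*, and both ways for *Mcl1*.

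The make-up of the anti-apoptotic transcripts differed between the fractions, which is given as a description without a test since it follows from the single genes. Their summed level was 126.1, 188.7, 159.7 and 177.9 FPKM in the flow-through and 250.7, 248.9, 264.3 and 256.1 FPKM in IL-18Rα-hi cells. The *Bcl2a1* copies made up 22.9 ± 2.34% of this sum in the flow-through and 44.6 ± 3.23% in IL-18Rα-hi cells, *Mcl1* 55.3 ± 2.39% and 39.2 ± 2.48%, *Bcl2l1* 8.67 ± 0.774% and 11.0 ± 0.132%, and *Bcl2* 10.8 ± 2.29% and 3.97 ± 0.737%. *Mcl1* was thus the main transcript of the flow-through by FPKM, and the *Bcl2a1* copies exceeded it in each IL-18Rα-hi library except replicate 4. The FPKM ratio of *Bcl2* to *Bcl2l1* was 0.798, 1.503, 1.24 and 1.52 in the flow-through and 0.281, 0.345, 0.366 and 0.453 in IL-18Rα-hi cells, with no overlap. Ratios within a library do not depend on how libraries are scaled.

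**Figure D3:**
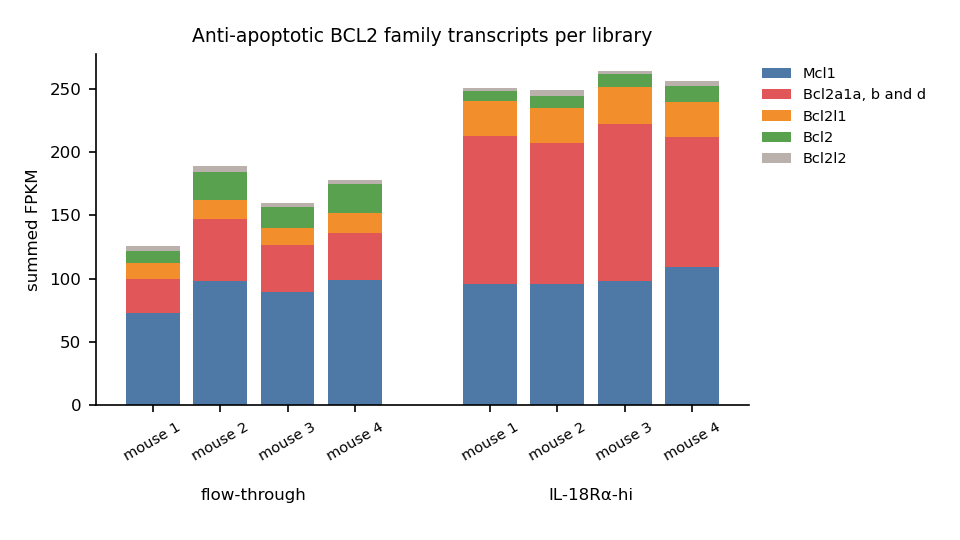
Summed FPKM of the anti-apoptotic genes in each library, stacked by gene with the 3 *Bcl2a1* copies together. Bars reach 126.1 to 188.7 FPKM in the flow-through and 248.9 to 264.3 FPKM in IL-18Rα-hi cells, and the *Bcl2a1* segment widens while the *Bcl2* segment narrows.

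Of the 7 BH3-only genes, 2 were higher and none was lower, or 3 higher and 1 lower with the mouse as a block. The shares of all genes were 14.1% higher and 13.7% lower, or 22.2% and 22.7% with the block. *Pmaip1*, which encodes NOXA, a protein that binds MCL1 and A1, and *Bik*, whose product acts at the endoplasmic reticulum, were higher. The other 5 were not called without the block. *Pmaip1* (on chromosome 18) was at 4.67, 9.41, 6.71 and 8.06 FPKM in the flow-through and at 14.1, 15.0, 14.6 and 19.3 FPKM in IL-18Rα-hi cells. The fractions were clearly separate, with a ratio of means of 2.18 and a log2 difference of 1.05 (SE 0.19, limma adjusted p = 0.00576). *Bik* (chr15:83526862-83544634) was at 0.78, 1.56, 1.51 and 2.15 FPKM and at 2.91, 5.78, 3.37 and 4.94 FPKM, without overlap. Its level stayed low, and it differed by 1.06 on the log2 scale (SE 0.23, limma adjusted p = 0.0109).

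*Bcl2l11*, which encodes BIM, the BH3-only protein that limits the survival of activated T cells, was at 17.1, 15.4, 16.9 and 18.3 FPKM in the flow-through and at 14.1, 13.3, 15.0 and 15.4 FPKM in IL-18Rα-hi cells. The value was lower in the IL-18Rα-hi library of each of the 4 mice, but the lowest flow-through library lay within the range of the IL-18Rα-hi libraries. The log2 fold change of -0.21 (SE 0.081) was not called (limma adjusted p = 0.083), whereas it was with the mouse as a block (adjusted p = 0.037). *Bid*, the link from caspase-8 to the mitochondria, had means of 28.7 ± 1.93 and 25.2 ± 2.26 FPKM (limma adjusted p = 0.147), and *Bbc3*, which encodes PUMA, of 6.14 ± 1.71 and 4.83 ± 0.552 FPKM (limma adjusted p = 0.258). Both were lower in IL-18Rα-hi cells in 4 of 4 mice. *Bad*, whose product binds BCL2 and BCL-XL, was at 24.3 ± 2.91 and 23.3 ± 2.57 FPKM (limma adjusted p = 0.719). *Bmf*, which passed the filter only through the IL-18Rα-hi libraries, was at 0.907 ± 0.377 and 1.71 ± 0.644 FPKM, higher in 4 of 4 mice. It was called with the mouse as a block (log2 fold change 0.50, adjusted p = 0.0134) but not without it (adjusted p = 0.116).

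The summed FPKM of the BH3-only genes was 85.7 ± 3.81 in the flow-through and 89.5 ± 5.56 in IL-18Rα-hi cells, with ranges that overlapped. Within it the share of *Pmaip1* was 8.45 ± 2.42% and 17.6 ± 2.13%, and that of *Bcl2l11* was 19.7 ± 1.38% and 16.2 ± 1.68%. The ratio of summed anti-apoptotic to summed BH3-only FPKM ranged from 1.42 to 2.22 in the flow-through and from 2.66 to 3.22 in IL-18Rα-hi cells. For single pairs the picture varied. *Bcl2* to *Bcl2l11* was 1.07 ± 0.385 and 0.699 ± 0.109 with overlapping ranges, lower in 4 of 4 mice, and *Mcl1* to *Pmaip1* was 12.9 ± 2.15 and 6.39 ± 0.511 without overlap. *Bcl2* to *Mcl1* was 0.196 ± 0.0464 and 0.101 ± 0.0144, also without overlap.

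The pore formers were abundant in both fractions and were not called. *Bax* was at 100.8, 84.1, 93.6 and 94.0 FPKM in the flow-through and at 93.8, 91.8, 83.5 and 96.5 FPKM in IL-18Rα-hi cells, and its log2 difference was -0.03 (SE 0.080, limma adjusted p = 0.829). *Bak1* was at 60.3, 49.6, 58.6 and 50.9 FPKM and at 64.4, 62.1, 56.7 and 58.4 FPKM, with a log2 difference of 0.14 (limma adjusted p = 0.257) that became -0.19 after T-cell scaling. For both genes the fractions overlapped. Exons of *Bax* overlap the gene model *Gm45808* on the same strand. The *Bax* to *Bak1* ratio was 1.70 ± 0.105 in the flow-through and 1.51 ± 0.0915 in IL-18Rα-hi cells, lower in 4 of 4 mice with overlapping ranges. *Bok*, a related pore former, was the member that did not pass the filter. It was listed at 0 in the 4 flow-through libraries and at 0.050, 0.29, 0.12 and 0.059 FPKM in the IL-18Rα-hi libraries, and no fold is given.

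Genes downstream of the mitochondria were divided. *Apaf1*, the scaffold of the apoptosome (chr10:90989311-91082770), was at 13.4, 14.1, 13.3 and 13.05 FPKM in the flow-through and at 18.3, 21.2, 19.2 and 20.5 FPKM in IL-18Rα-hi cells. *Xiap*, an inhibitor of caspase-9 and the effector caspases (chrX:42059679-42109656), was at 15.3, 18.1, 14.8 and 15.7 FPKM and at 20.8, 20.6, 22.9 and 22.9 FPKM. For neither gene did the fractions overlap. Log2 fold changes were 0.52 for *Apaf1* (SE 0.073, limma adjusted p = 0.0023) and 0.43 for *Xiap* (SE 0.084, limma adjusted p = 0.00839). After T-cell scaling they were 0.20 and 0.10 and were not called (adjusted p = 0.481 and 0.71). Without flow-through replicate 1, T-cell scaling gave 0.40 for *Apaf1*, which was called (adjusted p = 0.0327), and 0.28 for *Xiap*, which was not (adjusted p = 0.0729).

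*Cycs*, the gene of cytochrome c (chr6:50562563-50566538), was the member called lower. It was at 55.8, 52.0, 56.5 and 52.1 FPKM in the flow-through and at 43.4, 38.5, 46.5 and 40.8 FPKM in IL-18Rα-hi cells. The fractions did not overlap, and the difference on the log2 scale was -0.35 (SE 0.078, limma adjusted p = 0.0127). After T-cell scaling it was -0.68 and not called (adjusted p = 0.0768), but it was called under that scaling with the mouse as a block (adjusted p = 0.0439) or without flow-through replicate 1 (-0.46, adjusted p = 0.0222). *Diablo*, which encodes SMAC, the mitochondrial antagonist of XIAP, was at 49.3 ± 6.998 and 42.2 ± 3.91 FPKM, lower in 4 of 4 mice without being called (limma adjusted p = 0.187). *Casp9*, the caspase that the apoptosome activates, was at 8.89 ± 1.32 and 8.32 ± 0.913 FPKM (limma adjusted p = 0.63). *Diablo* and *Casp9* overlap exons of other genes on the opposite strand, and *Diablo* also those of *Gm49027* on its own strand.

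Of the other caspases, the inflammatory caspases *Casp1* and *Casp4* were higher and the apoptotic *Casp2*, *Casp6* and *Casp8* were not called. *Casp1* (chr9:5298517-5307265), which matures interleukin-1β and interleukin-18, was at 10.5, 25.2, 19.1 and 20.0 FPKM in the flow-through and at 40.5, 42.4, 44.8 and 44.8 FPKM in IL-18Rα-hi cells. Its neighbor *Casp4* (chr9:5308828-5336783), which senses cytosolic lipopolysaccharide, was at 6.47, 12.0, 9.002 and 12.0 FPKM and at 17.1, 20.5, 19.5 and 20.4 FPKM. The fractions did not overlap for either gene, and flow-through replicate 1 was the lowest library for both. The ratios of means were 2.31 for *Casp1* (log2 fold change 1.22, SE 0.22, limma adjusted p = 0.0061) and 1.97 for *Casp4* (0.94, SE 0.18, limma adjusted p = 0.00699). After T-cell scaling the log2 fold changes were 0.90 (adjusted p = 0.00842) and 0.63 (adjusted p = 0.029), and the latter was not called when the mouse was also a block (adjusted p = 0.0642).

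*Casp8*, the initiator caspase of death receptors, was at 33.4, 52.4, 45.8 and 53.9 FPKM in the flow-through and at 51.5, 55.3, 56.7 and 58.7 FPKM in IL-18Rα-hi cells. It was higher in 4 of 4 mice, with overlap, and the log2 fold change of 0.28 (SE 0.14) was not called without the block (limma adjusted p = 0.182) or with it (adjusted p = 0.0593). *Casp2*, which responds to genotoxic stress, was at 37.5 ± 2.94 and 37.2 ± 1.43 FPKM (limma adjusted p = 0.959), and the effector caspase *Casp6* was at 17.3 ± 2.74 and 16.2 ± 0.737 FPKM (limma adjusted p = 0.65).

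In the death receptor pathway, the ligand *Tnfsf10* and the adaptor *Tradd* were higher, and *Fas*, *Fasl*, *Fadd* and *Cflar* were not called. With the mouse as a block, *Fasl* and *Cflar* were called higher as well. *Tnfsf10*, which encodes TRAIL (chr3:27317028-27342427), was at 6.36, 11.9, 10.2 and 11.5 FPKM in the flow-through and at 22.6, 24.0, 25.2 and 26.4 FPKM in IL-18Rα-hi cells. The fractions were far apart, with a ratio of means of 2.46 and a log2 difference of 1.25 (SE 0.17, limma adjusted p = 0.0021), or 0.94 after T-cell scaling (adjusted p = 0.00466). *Fasl*, the ligand by which cytotoxic T cells engage FAS, was at 1.32, 3.43, 2.42 and 2.12 FPKM and at 2.96, 4.11, 3.96 and 4.56 FPKM. It was higher in 4 of 4 mice with overlapping fractions. Its log2 fold change of 0.59 (SE 0.20) missed the threshold (limma adjusted p = 0.0593) and passed it with the mouse as a block (adjusted p = 0.0117), with all libraries scaled to the same summed FPKM (adjusted p = 0.0462) and without flow-through replicate 2 (adjusted p = 0.0213).

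*Fas*, the receptor, was at 7.02, 13.03, 9.77 and 12.7 FPKM in the flow-through and at 13.4, 14.6, 12.0 and 14.4 FPKM in IL-18Rα-hi cells. The fractions overlapped, and the log2 difference was 0.36 (SE 0.18, limma adjusted p = 0.155, or 0.0574 with the mouse as a block). The *Fasl* to *Fas* ratio was 0.217 ± 0.0463 and 0.287 ± 0.0482, higher in 4 of 4 mice with overlapping ranges. *Cflar*, which encodes cFLIP, the inhibitor of caspase-8 at death receptors, was at 25.1, 36.9, 27.6 and 33.7 FPKM and at 34.8, 43.5, 36.8 and 36.0 FPKM. It was higher in 4 of 4 mice, was called with the mouse as a block (log2 fold change 0.30, adjusted p = 0.0241) and not without it (limma adjusted p = 0.126), and was at -0.03 after T-cell scaling. *Cflar* lies next to *Casp8* on chromosome 1, and the *Cflar* to *Casp8* ratio was 0.671 ± 0.0690 and 0.681 ± 0.0750, higher in 2 of 4 mice.

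*Tradd*, the adaptor of TNF receptor 1, was at 22.5, 25.8, 23.3 and 26.4 FPKM in the flow-through and at 30.5, 30.1, 30.2 and 28.4 FPKM in IL-18Rα-hi cells, without overlap. The log2 difference was 0.28 (SE 0.075, limma adjusted p = 0.0271), and -0.05 after T-cell scaling or 0.11 when that scaling left out flow-through replicate 1, not called in either case. The call was lost without flow-through replicate 3 (adjusted p = 0.0807) and without any 1 of the IL-18Rα-hi replicates (adjusted p = 0.0614, 0.073, 0.0723 and 0.0521). *Fadd*, the adaptor of FAS, was at 5.16 ± 0.602 and 4.98 ± 0.148 FPKM (limma adjusted p = 0.795).

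The necroptosis kinases were somewhat higher, while their substrate was not called. *Ripk3* was at 30.5, 35.1, 31.1 and 35.7 FPKM in the flow-through and at 42.6, 41.9, 41.4 and 41.3 FPKM in IL-18Rα-hi cells. *Ripk1* was at 15.5, 17.6, 15.1 and 17.4 FPKM and at 19.0, 20.3, 20.2 and 20.4 FPKM. Both were without overlap, and the log2 fold changes were 0.33 for *Ripk3* (SE 0.074, limma adjusted p = 0.013) and 0.27 for *Ripk1* (SE 0.076, limma adjusted p = 0.0305). After T-cell scaling they were 0.00099 and -0.05, or 0.17 and 0.12 without flow-through replicate 1, and neither was called in either case. The call of *Ripk1* was also lost without flow-through replicate 3 (adjusted p = 0.0897) or IL-18Rα-hi replicate 2, 3 or 4 (adjusted p = 0.081, 0.0779 and 0.0833). Exons of *Ripk1* overlap *Serpinb6a* on the opposite strand and the pseudogene *Gm17084* on the same strand. *Mlkl*, the membrane-lytic protein that RIPK3 phosphorylates, was at 7.15 ± 1.62 and 6.70 ± 2.15 FPKM (limma adjusted p = 0.745).

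**Figure D4:**
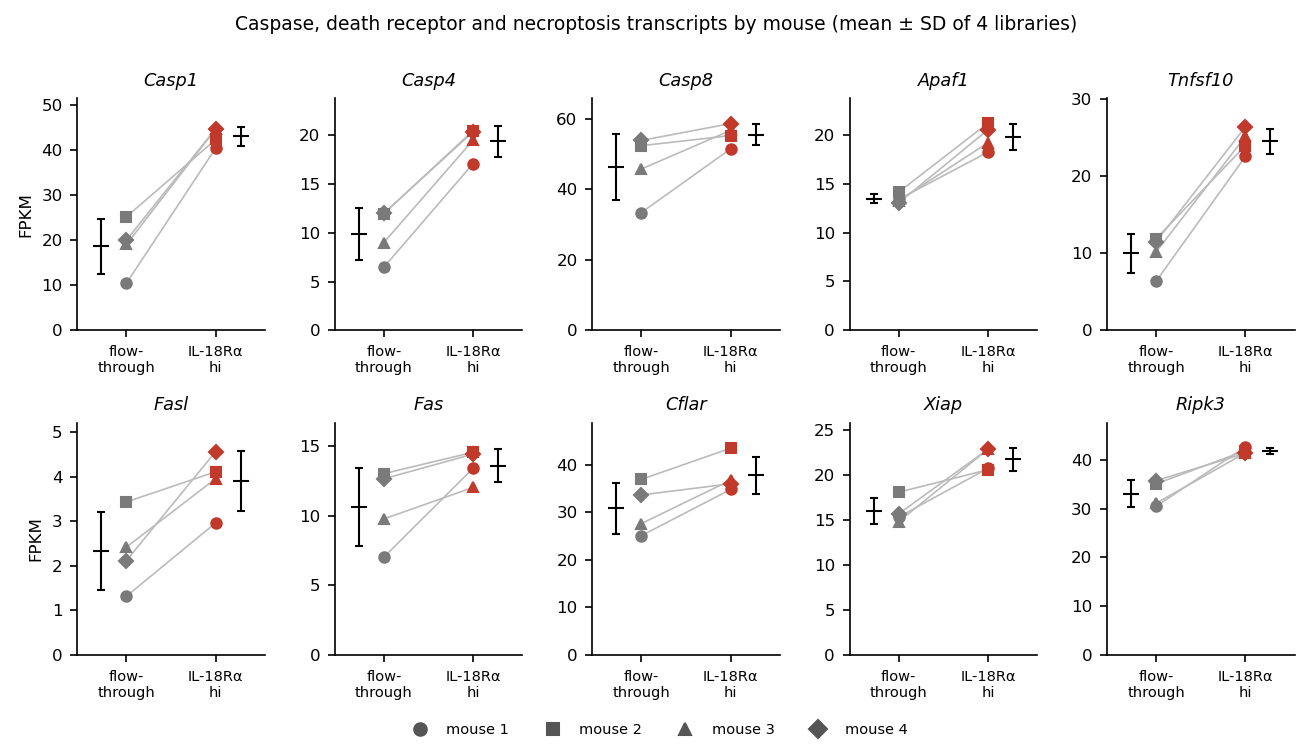
FPKM of 10 caspase, death receptor and necroptosis genes in each library (vertical axes start at 0), with lines joining the libraries of a mouse and the mean ± SD of 4 libraries beside the points. The fractions are separate for *Casp1*, *Casp4*, *Apaf1*, *Tnfsf10*, *Xiap* and *Ripk3* and overlap for *Casp8*, *Fasl*, *Fas* and *Cflar*.

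Members spanned a wide range of levels. By mean FPKM, *Bax*, *Mcl1*, *Bak1* and *Cycs* were the 4 members above 50 FPKM in the flow-through. In IL-18Rα-hi cells *Mcl1* and *Bax* came first, at 99.8 ± 6.48 and 91.4 ± 5.61 FPKM, a pair whose library ranges overlapped. *Bcl2a1b* was at rank 3 (70.4 ± 6.79 FPKM), where it had been at rank 13 in the flow-through, and *Casp1* at rank 6 (43.1 ± 2.08 FPKM), where it had been at rank 14. *Bcl2* was at rank 15 in the flow-through and at rank 26 in IL-18Rα-hi cells. The SD over 4 libraries was larger in the flow-through for 24 of 35 members, and flow-through replicate 1 was the lowest flow-through library for 18 members, among them 11 of the 14 called higher, and the highest for 10.

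Other cell death genes were read from a separate list of 75, of which 64 passed the filter. In IL-18Rα-hi cells 9 were higher and 6 lower (14.1% and 9.38%, beside 14.1% and 13.7% of all genes), with a median log2 fold change of -0.0056. The share of higher genes was thus that of all genes, and the share of lower genes was below it. With the mouse as a block 17 were higher and 16 lower (26.6% and 25%, beside 22.2% and 22.7% of all genes). After T-cell scaling, 4 of 65 tested (*Tnf*, *Tnfrsf1b*, *Tnfrsf25* and *Pycard*) were higher and 1 (*Tnfrsf12a*) lower, beside 4.18% and 7.44% of all genes. The other genes of this list named below were not called after that scaling. The TNF receptor group held most of the higher genes, with 6 of 25 higher and 2 lower. *Tnfrsf25*, or death receptor 3, was at 13.1 ± 3.63 and 27.5 ± 5.70 FPKM (log2 fold change 1.03, limma adjusted p = 0.0102), and *Tnfrsf1b*, or TNF receptor 2, at 26.6 ± 6.51 and 53.2 ± 6.44 FPKM (log2 fold change 1.00, limma adjusted p = 0.00591). The ligands *Tnf* (12.3 ± 3.68 and 24.5 ± 2.41 FPKM, limma adjusted p = 0.0115) and *Lta* (6.55 ± 2.32 and 12.7 ± 2.14 FPKM, limma adjusted p = 0.0215) and the adaptor *Traf5* (31.3 ± 6.12 and 47.6 ± 4.49 FPKM, limma adjusted p = 0.0193) rose as well. The others called in this group, picked out after their values were seen, were *Traf3*, which was higher, and *Tnfrsf12a* and *Daxx*, which were lower.

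*Pycard*, the adaptor that links inflammasome sensors to caspase-1, rose from 89.5 ± 14.4 to 172.5 ± 17.7 FPKM (log2 fold change 0.95, limma adjusted p = 0.00226). *Birc5*, which encodes survivin, a protein of cell division as well as of the IAP family, rose from 121.7 ± 26.1 to 197.2 ± 31.7 FPKM (log2 fold change 0.70, limma adjusted p = 0.0159). The 10 genes for mitochondrial death factors and nucleases all had log2 fold changes below 0, as did 52% of all genes tested, and 1 was called, or 5 with the mouse as a block (*Htra2*, *Vdac1*, *Vdac2*, *Parp1* and *Acin1*). Called in both fits was *Htra2*, a mitochondrial protease, at 85.6 ± 32.4 and 41.9 ± 6.13 FPKM (log2 fold change -0.95, limma adjusted p = 0.0224). Its flow-through values of 127.4, 58.1, 94.9 and 61.9 FPKM stood beside erythroid progenitor sums of 3061, 1038, 1689 and 1311 FPKM in the same libraries, whose part in the result was not tested. The remaining BCL2 family genes were likewise below 0 for 7 of 7 tested, with *Bnip3l* called, or 4 genes with the block (*Bnip3l*, *Bcl2l12*, *Bcl2l13* and *Bag3*). For both groups the share called lower among all genes was 13.7%, or 22.7% with the block. *Trp53*, the gene of the tumor suppressor p53, fell from 180.4 ± 26.4 to 119.9 ± 9.27 FPKM (log2 fold change -0.58, limma adjusted p = 0.00776). *Aen*, an apoptosis-enhancing nuclease, fell from 29.6 ± 3.53 to 20.7 ± 1.29 FPKM (log2 fold change -0.49, limma adjusted p = 0.0095).

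The labelled cell type was checked against marker genes. None of the 8 CD8 T-cell identity genes was called, although *Cd2* was higher with the mouse as a block (limma adjusted p = 0.0305) and 5 of them (*Cd2*, *Cd3e*, *Cd3g*, *Lck* and *Cd8a*) were higher in every IL-18Rα-hi library than in any flow-through library, which bears on T-cell scaling. In addition, the melanoma markers *Dct*, *Mlana*, *Tyr* and *Tyrp1* stood at 0 throughout. *Pmel*, the remaining melanoma marker, was at 0.34 to 0.84 FPKM in the flow-through and at 0.41 to 0.55 FPKM in IL-18Rα-hi libraries, below the filter. Other lists moved with the fractions. Of 8 myeloid markers, 5 (*Lyz2*, *Itgam*, *Adgre1*, *Cd68* and *Cst3*) were higher in IL-18Rα-hi cells, with summed FPKM of 264.1 to 720.4 in the flow-through and 699.1 to 1523 in IL-18Rα-hi libraries. Of 6 NK-cell markers tested, 5, including *Ncr1* and *Klrb1c*, were higher (13.2 to 24.9 against 36.3 to 88.0 FPKM), and so were *Cd4*, *Foxp3* and *Cd40lg*, the 3 CD4 T-cell markers (3.23 to 8.63 against 24.4 to 41.6 FPKM). Of the called markers, *Adgre1*, *Cd4* and the NK-cell markers *Klra8* and *Klri2* passed the filter only through the IL-18Rα-hi libraries. Of 6 γδ T-cell markers, 2 (*Trdc* and *Blk*) were higher (67.1 to 96.5 against 88.7 to 193.3 FPKM). Erythroid progenitor markers were lower for 4 of 8 (*Car1*, *Tfr2*, *Gata1* and *Epor*), or 8 of 8 with the mouse as a block. Granulocyte markers, at 543 to 3122 and 562.3 to 3562 FPKM, hemoglobin and *Alas2*, at 204.2 to 1055 and 117.4 to 1146 FPKM, B-cell markers, at 21.9 to 60.1 and 27.9 to 71.6 FPKM, and plasma-cell markers, at 289.6 to 1225 and 523.4 to 1458 FPKM, held no called gene. With the mouse as a block, all 4 plasma-cell markers were called higher, as were *S100a8*, *Elane* and *Cd79b*, while *Mpo*, *Hba-a1*, *Hbb-bs* and *Cr2* were called lower. The block also called 5 of the 6 γδ T-cell markers and 7 of the 8 myeloid markers higher.

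Myeloid cells are known to express *Bcl2a1* genes, *Casp1* and *Casp4*, so these were set beside the myeloid markers. Myeloid sums of the fractions overlapped in a single pair of libraries, with IL-18Rα-hi replicate 1 at 699.1 FPKM and flow-through replicate 2 at 720.4 FPKM. In the same pair of libraries *Bcl2a1b* was at 74.3 against 30.9 FPKM, *Bcl2a1d* at 41.7 against 17.2 FPKM, *Casp1* at 40.5 against 25.2 FPKM and *Casp4* at 17.1 against 12.0 FPKM. The pair came from different mice, and its single markers went both ways. *Csf1r* was at 8.76 against 18.4 FPKM and *Fcgr3* at 11.3 against 34.9 FPKM. *Cd14* was at 1.90 against 3.58 FPKM and *Lyz2* at 338 against 347 FPKM. Higher in the IL-18Rα-hi library were *Cd68* (22.2 against 18.2 FPKM) and *Itgam* (6.69 against 5.39 FPKM). So were *Cst3* (309 against 292 FPKM) and *Adgre1* (1.41 against 1.11 FPKM). Within the flow-through, replicate 1 had the lowest myeloid sum and the lowest value of all 4 genes, and replicate 2 had the highest sum and the highest value of *Bcl2a1b*, *Bcl2a1d* and *Casp1*. The part of myeloid cells in these results was not tested. NK-cell marker sums did not overlap between the fractions. The part of NK cells in the values of *Tnfsf10*, *Fasl* and the other members was not tested. The part of erythroid progenitors in the values of *Cycs*, *Bcl2l1* and the other members was likewise not tested.

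**Figure D5:**
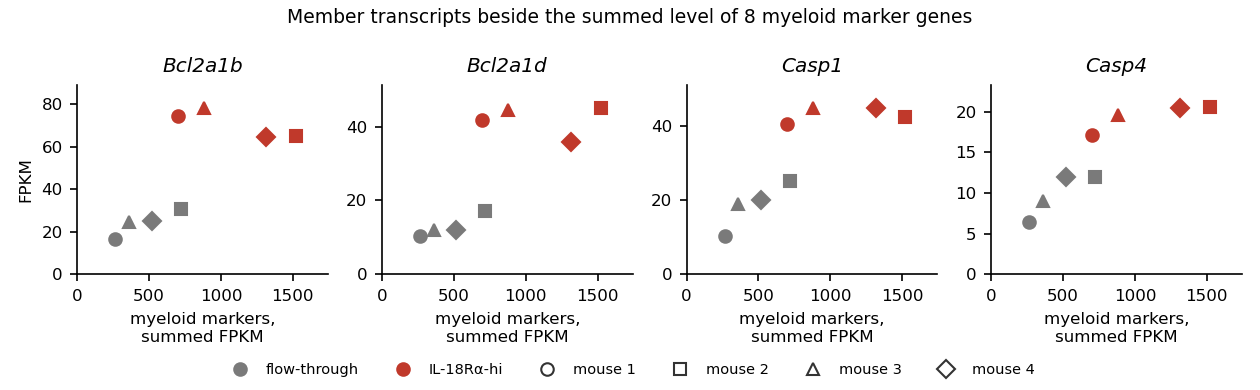
FPKM of *Bcl2a1b*, *Bcl2a1d*, *Casp1* and *Casp4* (vertical axes) against the summed FPKM of 8 myeloid marker genes (horizontal axes) in each library, gray for flow-through and red for IL-18Rα-hi, with a symbol for each mouse. Myeloid sums run from 264.1 to 720.4 FPKM in the flow-through and from 699.1 to 1523 FPKM in IL-18Rα-hi libraries, and the 4 genes are higher in every IL-18Rα-hi library than in any flow-through library.

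The promoters of the members were searched for the NF-κB consensus, a motif of 10 bases, on both strands of the 250 bases before the RefSeq start (GRCm38.p6), because members called higher include genes known as NF-κB targets. The 33 members with a window had 45 windows, of which 4 held a match (8.89%), beside 3.9% of all 32851 windows. The windows of *Casp4* hold the same site before different starts, so the matches fell in 3 members. A share by gene over all genes was not computed. Of the 12 called members with a window, 2 held a match, *Bcl2l1* (chr2:152830940-152830967, minus strand) and *Casp4* (chr9:5308746-5308775, plus strand), and *Bbc3* (chr7:16309436-16309465, plus strand), which was not called, was the other member. The matches are in capitals, and those of *Casp4* and *Bbc3* overlap with further matches shifted by 1 base or read on the other strand.
Bcl2l1: tgtttgtgGGGGGTCTCCagcatacgcc
Casp4: atgagttacaGGGGATTTCCccacagcagt
Bbc3: tctggctgccGGGAAACCCCccgcgccgag
The match lay 242 bases before the RefSeq start in *Bcl2l1*, 93 or 104 bases before the starts of *Casp4* and 137 bases before that of *Bbc3*. In GENCODE M21, *Bcl2l1* spans chr2:152780668-152831728 and *Bbc3* chr7:16308393-16318205. The sites of these 2 genes thus lie inside the annotated genes, before a RefSeq start within them. A match describes the sequence and not binding. Transcripts of *Bcl2l1* and *Casp4* were higher in IL-18Rα-hi cells as given above, and *Bbc3* was not called. The windows of the other 10 called members searched, *Casp1* and *Tnfsf10* among them, do not hold these letters. The members without a window were all among those called, so the called members were searched only in part.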

How the data were processed

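RNA from 8 libraries, 4 of IL-18Rα-hi CD8+ T cells and 4 of flow-through cells, was measured by stranded poly(A) paired-end sequencing. The authors mapped reads to mm10 with TopHat and computed FPKM values with Cufflinks 2.1.1, per the labels and the study's methods, and the deposited table holds these FPKM for 47493 genes. The release of the annotation is not given in the sources used here. Cufflinks options other than corrections for multiple mapping and fragment bias are described as defaults, which ignore strand, so overlapping genes and close paralogs are uncertain. FPKM carry no counts, so depth and counting error are unknown.

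Groups and replicate numbers came from the sample titles. Fold changes were tested in R 4.3.3 with limma 3.58.1 on log2(FPKM + 1), with a variance trend, two-sided, over the 12166 genes whose mean reached 1 FPKM, at a Benjamini-Hochberg adjusted p under 0.05. The procedure was tested on simulated data with independent noise, which held no effect of the mouse and no difference in cell make-up. The labels say that both fractions were prepared from each of 4 mice, and the same number was taken as the same mouse. Deviations from the group means correlated between same-numbered libraries at 0.66, 0.589, 0.308 and 0.471. Between libraries with different numbers the correlations ran from -0.6 to 0.412. The highest of these, for flow-through replicate 2 and IL-18Rα-hi replicate 4, exceeded the 0.308 of replicate 3. The study states no paired test for these libraries, and the fit behind the calls left the pairing out. The block for the mouse, which takes the pairing up, was an alternative. Other alternatives were a pseudocount of 0.1, no filter, a mean of at least 5 FPKM, equal summed FPKM, T-cell scaling, the block with T-cell scaling, leaving out each library and, added after seeing the data, T-cell scaling without flow-through replicate 1.

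Members and gene lists were chosen with earlier results of these data known. Members called, and *Bcl2*, *Bcl2l11*, *Mcl1*, *Bax*, *Bak1*, *Fas*, *Fasl*, *Casp8* and *Cflar* whatever their result, are given in every library and the others by mean. Of the other cell death genes, the rule named the 10 with the largest absolute log2 fold change among those called, and counts include genes that are not named. Coordinates are from GENCODE M21 (36 of 36 members matched by identifier and name) and sequences from mm10 and the RefSeq promoter table, which held 33 of the members. Protein sequences were not used here.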

Additional observations from a re-analysis of the deposited data

Results flagged for a closer look

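In 6 of 70 groups of 4 libraries (35 members in both fractions), 1 library stood away from its 3 fellows under Dixon's criterion, where chance gives about 3.5. In IL-18Rα-hi cells, *Bcl2l1* was at 28.8 FPKM in replicate 3, against 27.7 to 27.8 FPKM in the others, *Mcl1* at 109.4 FPKM in replicate 4 (others 96.0 to 97.8 FPKM), *Casp9* at 9.68 FPKM in replicate 4 (others 7.70 to 8.02 FPKM) and *Ripk1* at 19.0 FPKM in replicate 1 (others 20.2 to 20.4 FPKM). In the flow-through, *Bad* was at 28.7 FPKM in replicate 1 (others 22.7 to 23.3 FPKM) and *Casp2* at 41.9 FPKM in replicate 1 (others 35.8 to 36.4 FPKM). Both values of flow-through replicate 1 were the highest of that fraction, whereas most members called higher were lowest in this library.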

How the results depend on the processing

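Of 554 values of single members under the alternatives, 488 kept their direction and side of the threshold, 30 lost the call, 11 gained it and 25 changed sign. T-cell scaling left 8 members higher, 7 together with the replicate block and 9 without flow-through replicate 1, and the lower members were then 1, 2 and 2. The replicate block alone, which pairs the fractions of a mouse, gave 3 lower members. Leaving out each library gave 11 to 15 higher and 1 to 2 lower members. For the other cell death genes, higher calls were 4 under T-cell scaling, 17 with the block, 3 with both and 6 to 11 without 1 library. Lower calls were 1, 16, 10 and 2 to 7, and 10 under T-cell scaling without flow-through replicate 1. For all genes, higher calls were 509, 2705, 612 and 1107 to 1813, and 990 under T-cell scaling without flow-through replicate 1, and lower calls were 906 under T-cell scaling (2234 with the block, 1940 without flow-through replicate 1), 2763 with the block alone and 939 to 1780 without 1 library. The lowest of these were reached without flow-through replicate 3 or IL-18Rα-hi replicate 2 or 4. T-cell scaling, with or without the block, turned the log2 fold changes of *Mcl1* (-0.18, or -0.066 without flow-through replicate 1), *Bak1* (-0.19), *Casp8* (-0.055), *Tradd* (-0.051), *Cflar* (-0.034) and *Ripk1* (-0.051), which remained above the median of all genes (-0.33). Equal summed FPKM turned *Casp2* (0.0084). Among members near 0, leaving out 1 library spanned 0 for *Bcl2l2* (-0.26 to 0.0061), *Bad* (-0.11 to 0.021), *Bax* (-0.073 to 0.017), *Casp9* (-0.15 to 0.0072), *Casp2* (-0.028 to 0.047), *Casp6* (-0.13 to 0.023), *Fadd* (-0.10 to 0.0097) and *Mlkl* (-0.26 to 0.037). The cause of these changes was not tested. With FPKM alone, the number of libraries sets the precision.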
